A study of Mus musculus with 32 samples.

Results

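Carcinoma, the malignant stage of the MMTV-PyMT mammary tumour, was compared with hyperplasia, its earliest lesion, in 14 of the 32 laser-captured regions of the series, chosen by the stage in their labels. The 9 carcinoma libraries comprised 6 regions of the tumour core and 3 of its border. The 5 hyperplasia libraries comprised 3 core regions (21, 22 and 33), 1 border region (44) and 1 region outside the tumour (46). All came from females of the MMTV-PyMT; R26-CBW; K8-CreERT2 genotype given 5 mg tamoxifen at 5 weeks of age, so the oncogene, the colour reporter and the Cre recombinase were shared by both groups. Age at collection was not analysed here, since animals were taken at a tumour volume and not at a set age. Cre was driven by keratin 8, so the coloured patches derive from cells that expressed this luminal keratin. By the labels, the colour was RFP in 5, YFP in 3 and GFP in 1 of the carcinoma regions. In hyperplasia it was RFP in 3 and GFP in 2. Colour was thus not balanced between the groups, and it was not fitted. The submitters give 3 animals without saying which region came from which. Some regions of a group therefore share an animal, which makes p-values over regions too small. Animals may also be shared between the groups, a pairing that can act the other way. Neither could be fitted, so p-values over regions do not measure a spread between animals.

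In this model the polyoma middle T antigen is expressed from a mammary virus promoter. It is a membrane-bound protein that recruits Src, Shc and PI3 kinase and so mimics an activated growth factor receptor. Lesions pass from hyperplasia through adenoma to carcinoma, with loss of the basal layer and of hormone receptors known from later stages, and several stages can be present in the same gland.

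Total counts were 6575885 to 15226553 in hyperplasia and 4443497 to 19564392 in carcinoma. Hyperplasia 22 had 10258 genes with a count, the fewest of the 14, and the other hyperplasia libraries had 13236 to 16785. Carcinoma libraries had 13847 to 17667. The mean was 14014 ± 2464 in hyperplasia (SD, n = 5) and 15834 ± 1336 in carcinoma (n = 9), and the difference did not pass a two-sided exact permutation test over all 2002 splits (p = 0.0869). The most counted gene ID, which has no symbol, accounted for 8.91 to 56.5% of counts in hyperplasia libraries and 11 to 53.7% in carcinoma libraries. Keratin 8, the luminal keratin that drove Cre, was counted in every library. It stood at 400 to 1460 CPM, that is, counts scaled to a common library size, in carcinoma and 428 to 1030 in hyperplasia.

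No gene passed between carcinoma and hyperplasia. Of 19907 genes tested by edgeR's quasi-likelihood test, 0 had a Benjamini-Hochberg adjusted p of 0.05 or less (0%), and the smallest adjusted p was 0.252. At an unadjusted p under 0.05 there were 2480 genes (12.5%), of which 1516 were higher in carcinoma (7.62%) and 964 lower (4.84%). Across all genes tested the median log2 difference, carcinoma minus hyperplasia, was 0.08. Among the 1029 genes with at least 100 CPM in both groups the median standard error was 0.44 on the log2 scale, so differences of the size seen there (median 0.28) were not detectable at this spread. Other tools gave other counts. The DESeq2 Wald test gave 1849 of the 19907 genes no adjusted p, so these could not be called. It called 420 genes (2.11% of the 19907), and 267 of these had a group with no count at all. Its calls also held 18 of the 20 genes of smallest edgeR p described below, all but Bola2 and Phactr2, with a DESeq2 adjusted p of 1.46e-07 for Mif4gd, and Isg15, Ifit3 and Zc3h7a. limma voom with sample weights called 3 (0.0151%), Gjb1 and Jrk higher and Crb1 lower. edgeR with a covariate for how many genes each library detected called 12 (0.0603%), all lower in carcinoma. Those 12, among them Myoz3 and Igsf21, were counted in 1 to 3 hyperplasia libraries. Because the edgeR test made no call, the genes named below are given as values.

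**Figure D1:**
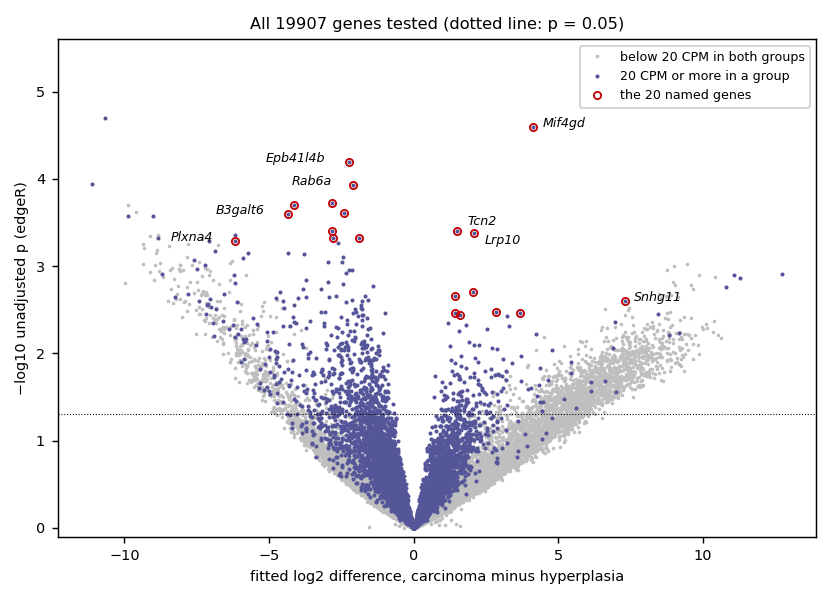
Fitted log2 difference of carcinoma minus hyperplasia (x axis) against the unadjusted edgeR p on a −log10 scale (y axis), 1 point per gene tested. The points above the dotted line are the 2480 genes with an unadjusted p under 0.05, and none passed after adjustment.

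Milk protein genes differed widely in level between single regions. Caseins are the major milk proteins, made by alveolar cells under prolactin through STAT5, which binds the GAS element. The promoter windows of the casein genes Csn2 and Csn1s1, from RefSeq on GRCm38.p6, are shown because these genes were far higher in 1 hyperplasia region than in the other 4. Each line gives the 250 bases before the start of the gene, 5′ to 3′ on the gene's strand, and capitals mark TTCNNNGAA, a palindrome and hence the same on both strands. Csn2 lies on the minus strand at chr5:87699426-87699675 and Csn1s1 on the plus strand at chr5:87665958-87666207.
Csn2: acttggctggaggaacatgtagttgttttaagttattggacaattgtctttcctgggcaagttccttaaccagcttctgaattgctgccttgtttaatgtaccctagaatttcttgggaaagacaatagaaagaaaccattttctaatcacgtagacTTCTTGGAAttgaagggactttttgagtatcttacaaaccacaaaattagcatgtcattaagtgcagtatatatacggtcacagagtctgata
Csn1s1: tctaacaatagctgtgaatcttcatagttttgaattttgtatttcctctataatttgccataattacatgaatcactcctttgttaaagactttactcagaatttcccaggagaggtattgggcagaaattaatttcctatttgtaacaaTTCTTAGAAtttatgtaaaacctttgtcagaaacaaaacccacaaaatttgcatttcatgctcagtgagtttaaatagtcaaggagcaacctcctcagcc
Each window held 1 match, starting 93 bases before the Csn2 start and 100 before that of Csn1s1. Of 27018 promoters of this length, 1940 (7.18%) held one. The window of Csn1s2a held none of these letters.

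Csn2 stood at 3.02, 0.488, 0, 0 and 7852 CPM in hyperplasia 21, 44, 22, 33 and 46, and at 0 to 41.1 in carcinoma with a median of 4.41. Csn1s1 stood at 9.07, 18.6, 0, 1.88 and 4978 CPM in the same hyperplasia libraries, and in carcinoma at 0.236 to 1021 with a median of 34.5. Csn1s2a reached 2391 CPM in hyperplasia 46 and at most 4.00 in the other hyperplasia regions. The region outside the tumour, hyperplasia 46, was thus the high one for all 3 genes, and the remaining hyperplasia regions overlapped carcinoma. Carcinoma 53, with 1021 CPM of Csn1s1, was the highest carcinoma region for that gene. The fitted log2 difference of Csn2 was −6.87 ± 1.87 (SE), with an adjusted p of 0.326 by edgeR's quasi-likelihood test. Without its highest library the hyperplasia mean of Csn2 was 0.878 CPM, below the carcinoma mean of 13.4. Csn3, kappa casein, was abundant in every region, at 8893, 7479, 14972, 3460 and 10044 CPM in hyperplasia and 3048 to 11677 in carcinoma (median 5018), and the groups overlapped. Over the 20 luminal progenitor and alveolar genes, 4 were higher and 16 lower in carcinoma, with a median log2 difference of −0.69, which was −0.06 without hyperplasia 46. In bulk regions, fewer cells of a type and less RNA per cell cannot be told apart.

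Interferon response genes and MHC class I genes, which display antigen to T cells, stood higher in carcinoma in 25 of 31 genes, with 0 called and a median log2 difference of 0.87. The median was 0.71 without carcinoma 06 and 1.91 without hyperplasia 46. Their summed level overlapped, at 1172 to 19164 CPM in carcinoma and 1566 to 10667 in hyperplasia. Carcinoma 53 was the lowest carcinoma library and hyperplasia 46 the highest hyperplasia library. Many of the interferon response genes carry the interferon-stimulated response element (ISRE) in their promoters. The windows of Ifit3, an interferon-induced antiviral gene, and Isg15, a ubiquitin-like interferon product, are shown. They were chosen because these were the least counted of the list in hyperplasia among the genes named. Capitals mark the ISRE as searched on both strands, which is TTTC, any 2 bases and TTTC again. Ifit3 lies on the plus strand at chr19:34583279-34583528 and Isg15 on the minus strand at chr4:156200819-156201068.
Ifit3: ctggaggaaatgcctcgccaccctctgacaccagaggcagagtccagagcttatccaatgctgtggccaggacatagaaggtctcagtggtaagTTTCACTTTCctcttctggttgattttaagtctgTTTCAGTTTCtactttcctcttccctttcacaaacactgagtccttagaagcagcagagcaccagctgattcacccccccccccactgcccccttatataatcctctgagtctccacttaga
Isg15: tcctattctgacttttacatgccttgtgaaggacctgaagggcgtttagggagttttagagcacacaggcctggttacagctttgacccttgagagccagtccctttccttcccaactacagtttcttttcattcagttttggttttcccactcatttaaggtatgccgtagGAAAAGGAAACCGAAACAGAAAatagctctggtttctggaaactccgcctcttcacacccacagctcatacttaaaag
Ifit3 held 2 matches, starting 156 and 122 bases before the gene, and Isg15 held 3 that overlap each other, starting 78, 72 and 66 bases before. Of the 27018 promoters, 821 (3.04%) held one. The window of Irf7, a transcription factor of the same response, held none of these letters. A search 1 base shorter, tried after these matches were seen, gave 3 matches in Ifit3, 3 in Isg15 and 0 in Irf7, and 1934 promoters (7.16%) held one.

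Ifit3 had no count in any of the 5 hyperplasia libraries, and in carcinoma it ranged from 0 to 109 CPM with a median of 2.19. Carcinoma 06 was the highest, and without it the carcinoma mean dropped from 16.9 to 5.42 CPM. Isg15 stood at 0.356, 0.366, 0, 0 and 0.412 CPM in hyperplasia and at 0 to 45.7 in carcinoma (median 10.1), and the groups overlapped because carcinoma 53 and 38 were at 0. Ifi27, an interferon-induced membrane protein gene, stood at 214, 76.1, 94.1, 82.1 and 74.5 CPM in hyperplasia and at 52.4 to 298 in carcinoma (median 181). Hyperplasia 21 lay within the carcinoma range and the other hyperplasia libraries lay above the lowest carcinoma library only. The edgeR log2 differences were 5.75 ± 2.04 for Isg15 and 0.84 ± 0.43 for Ifi27 (SE), with adjusted p of 0.326 and 0.419.
The T, NK and B cell markers, measured beside this list, were higher in carcinoma in 10 of 14 genes, with a median of 4.12, or 2.88 with genes of no count set at their bound, and 2.97 before bounds without carcinoma 06. Other processing settings gave this list medians down to 0.48, the value with position as a covariate. Their summed level was 3.72 to 720 CPM in carcinoma and 10.9 to 48.2 in hyperplasia, Cd2, Cd79b and Ms4a1 were at 0 in hyperplasia, and their part in the interferon result was not tested. Jchain, the joining chain of secreted antibodies, reached 689 CPM in carcinoma 06 and 21.7 at most in hyperplasia.

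**Figure D2:**
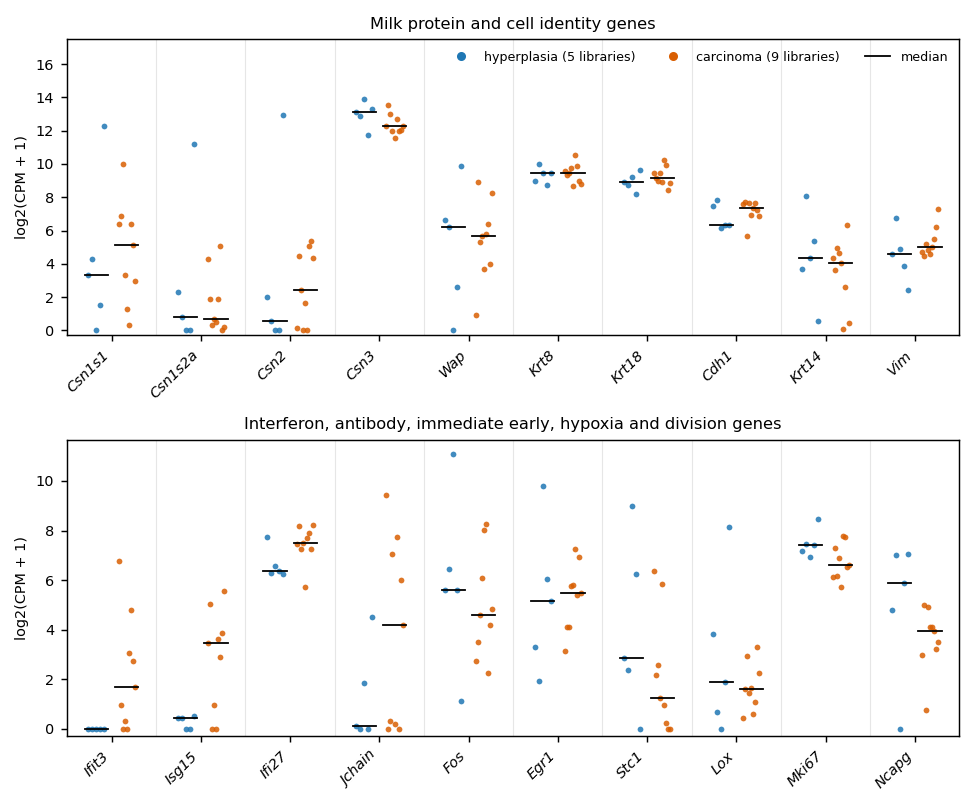
Level of named genes in each library as log2(CPM + 1) on the y axis, with 5 hyperplasia and 9 carcinoma points per gene. Csn2 and Csn1s2a stand out in hyperplasia 46 alone, Csn1s1 in hyperplasia 46 and, at 1021 CPM, in carcinoma 53, Fos and Egr1 in hyperplasia 22 alone, and Ifit3 has no count in hyperplasia.

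Division genes were read against all genes tested, of which 47.2% were lower in carcinoma. Of 56 genes of G2 and mitosis, 13 were higher and 43 lower, with a median log2 difference of −0.42, against 20 higher and 26 lower of 46 genes of DNA replication and S phase (median −0.29), and 0 were called in either list. In the S phase list Cdt1, which licenses replication origins, stood higher in carcinoma, with a log2 difference of 1.59. The groups overlapped for Cdt1, at 0 to 42.1 CPM in hyperplasia and 6.32 to 79.7 in carcinoma. Orc6 and Cdc45 of the same list stood lower, with log2 differences of −2.92 and −1.97. That of Orc6 was −1.12 without hyperplasia 22. Mki67, a nuclear protein of cycling cells, stood at 144, 175, 123, 169 and 357 CPM in hyperplasia and at 51.3 to 221 in carcinoma (median 97.5). The groups overlapped, with a log2 difference of −0.68 ± 0.50 (SE) and an edgeR adjusted p of 0.627. Top2a, the topoisomerase that untangles chromosomes, stood at 131, 73.6, 32.1, 205 and 99.0 CPM in hyperplasia and at 54 to 150 in carcinoma. Ccnb1, cyclin B1 of mitotic entry, had no count in hyperplasia 22 and 24.7 to 71.9 CPM in the remaining 4, against 3.02 to 64.8 in carcinoma. The median difference of the G2 and mitosis list was −0.67 without hyperplasia 22 and −0.24 without hyperplasia 21. That of the S phase list was −0.46 without hyperplasia 22 and 0.07 without hyperplasia 33.

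Immediate early and heat shock genes, induced within minutes of stimulation, were higher in carcinoma in 4 of 26 genes with a median of −0.56. Fos, a subunit of AP-1, stood at 48, 85.1, 2183, 47.8 and 1.15 CPM in hyperplasia 21, 44, 22, 33 and 46, and at 3.69 to 307 in carcinoma (median 23.2). Egr1, a zinc finger factor of the same response, reached 888 CPM in hyperplasia 22, and 2.81 to 65.1 in the remaining 4. Hyperplasia 22 alone was high, and without it 14 of the 26 genes were higher in carcinoma and the median was 0.04. Adipocyte markers were higher in carcinoma in 2 of 11 genes, with a median of −2.44, −0.56 without hyperplasia 22 and −0.05 without hyperplasia 21. Their summed level was 15.0 to 121 CPM in carcinoma and 17.6 to 567 in hyperplasia.

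Glycolysis genes stood higher in carcinoma in 17 of 20 genes, with a median of 0.37 and 0 called. Aldoa, aldolase of this pathway, stood at 640, 596, 725, 388 and 737 CPM in hyperplasia and at 436 to 3683 in carcinoma (median 754). The groups overlapped, and carcinoma 54 and 08 were the highest. Of the 27 matrix proteases and inhibitors 18 were higher, with a median of 0.30. Mmp14, a membrane-bound collagenase, stood at 6.67, 172, 22.7, 9.22 and 6.34 CPM in hyperplasia and at 16.7 to 133 in carcinoma (median 80.4). Hyperplasia 44 at the border exceeded every carcinoma library. Fibroblast and collagen genes were higher in 13 of 20 (median 0.57), but the median was −0.75 without carcinoma 55.

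Receptor tyrosine kinases and their ligands were higher in carcinoma in 8 of 24 genes (median −0.42, or −0.04 without hyperplasia 44 and 0.16 with limma voom). Met, the hepatocyte growth factor receptor, stood at 111, 196, 46.7, 146 and 160 CPM in hyperplasia and at 33.7 to 146 in carcinoma (median 57.8). Among the Src, Shc, PI3 kinase and Ras genes through which middle T acts, 13 of 33 were higher (median −0.14, or 0.03 without hyperplasia 46 and 0.15 with limma voom). Luminal keratins and junction genes were split 10 to 10 (median −0.01, or 0.09 without hyperplasia 46), and Krt8 differed by 0.16 ± 0.30 on the log2 scale (SE). Endothelial markers were higher in 3 of 13 (median −0.68, or −0.19 with limma voom), and macrophage markers were split 9 to 9.

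**Figure D3:**
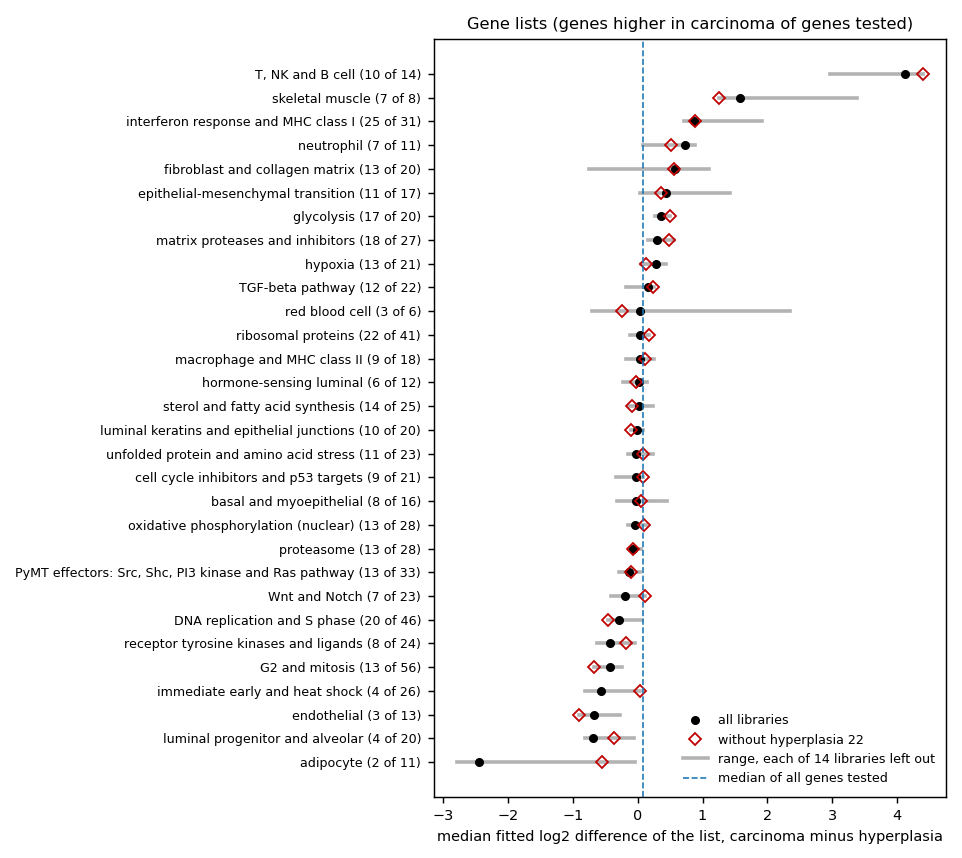
Median fitted log2 difference, carcinoma minus hyperplasia (x axis), of each gene list, with the number of genes higher in carcinoma of those tested. The T, NK and B cell list lies farthest to the right, at a median that other settings took down to 0.48, and the adipocyte list farthest to the left, against 0.08 over all genes tested.

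Among the genes of smallest p with at least 20 CPM, 5 of the 10 higher in carcinoma had groups that did not overlap, and 0 of the 10 lower. Over all genes tested the shares were 0.116% and 0.0251%. The 20 genes were chosen by p for this same comparison, which favours separated groups, so the counts are a description. Mif4gd, a translation factor partner, stood at 5.33, 2.69, 3.53, 4.82 and 1.48 CPM in hyperplasia and at 22.5 to 134 in carcinoma (median 46.6). Every carcinoma library was above every hyperplasia library, with a log2 difference of 4.14 ± 0.88 (SE) and an edgeR adjusted p of 0.252. Lrp10, a lipoprotein receptor family member, stood at 55.5, 13.9, 15.8, 25.8 and 52.9 CPM against 93.2 to 253 (median 125), also without overlap. Creb3l1, a membrane-bound transcription factor of the secretory pathway, stood at 15.2, 18.8, 5.46, 5.24 and 11.2 CPM against 27.7 to 89.7. Rab1b, a GTPase of transport from the endoplasmic reticulum to the Golgi, and Cog7, a Golgi tethering subunit, did not overlap either. Rab1b stood at 30.7 to 106 CPM in hyperplasia and 111 to 423 in carcinoma, and Cog7 at 0.0823 to 8.98 and 11.2 to 36.3. The other 5 overlapped, namely Tcn2, Snhg11, Bola2, Lmo7 and Tcirg1. Their adjusted p by edgeR was 0.326, and leaving out hyperplasia 22 moved 0 of the 10 by over 1.5 times.

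The 10 lower in carcinoma all overlapped between the groups, and hyperplasia 22 was the highest hyperplasia library in 8 of them. Epb41l4b, a cytoskeletal adaptor, stood at 79.3, 123, 805, 62.4 and 386 CPM in hyperplasia and at 32.8 to 77.9 in carcinoma (median 72.4). Hyperplasia 22 and 46 were high, and the log2 difference of −2.24 ± 0.51 (SE) became −1.37 without hyperplasia 22. Tjp1, the tight junction scaffold ZO-1, stood at 45.3, 28.4, 553, 52.6 and 292 CPM against 8.47 to 67.0, and its difference of −2.41 became −1.47. Phactr2, an actin regulator, and Cebpd, a transcription factor of the acute phase response, were high in hyperplasia 22 only, at 737 and 877 CPM, and their differences of −4.13 and −2.78 became −0.32 and −0.41. Bcl2l11, the cell death protein BIM, went from −2.82 to −1.76 and B3galt6 from −4.35 to −3.21. B3galt6, a galactosyltransferase of proteoglycan linkage, stood at 2.58, 0.366, 558, 3.14 and 334 CPM in hyperplasia and at 0.253 to 17.9 in carcinoma (median 7.94). Hyperplasia 22 and 46 were high and the other 3 lay below the carcinoma median, and limma voom gave a difference of 0.30, in the opposite direction. Rab6a, Reep4, Ubp1 and Plxna4 moved by less than 1.5 times. Plxna4, a semaphorin receptor subunit, stood at 17.6, 26.6, 40.3, 129 and 1.23 CPM in hyperplasia and at 0 to 3.18 in carcinoma, overlapping at hyperplasia 46. Hyperplasia 22 was also the library with the fewest detected genes, and the part of this in the result was not tested.

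**Figure D4:**
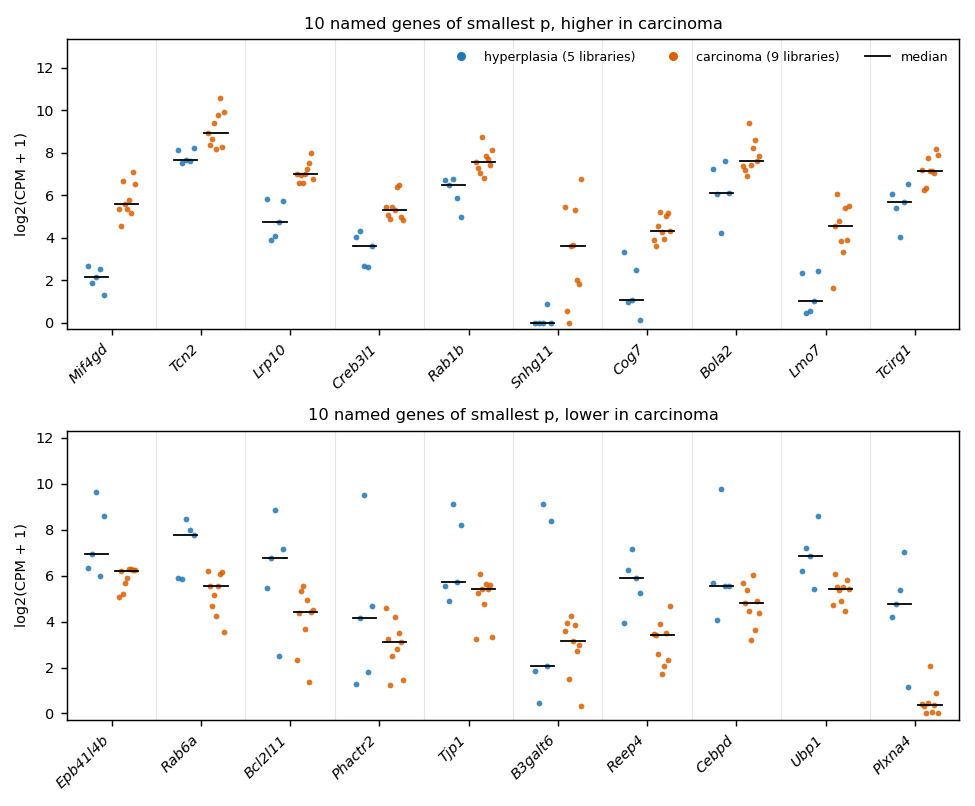
Level of the 10 genes of smallest p in each direction in every library, as log2(CPM + 1) on the y axis. Hyperplasia 22 lies highest of the hyperplasia points in 8 of the 10 genes lower in carcinoma, and 5 of the 10 genes higher in carcinoma have no overlap. The genes were chosen by p for this same comparison, which favours separated groups.

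The 2 groups did not overlap for 28 genes (0.141%), with every carcinoma library above every hyperplasia library in 23 (0.116%) and the reverse in 5 (0.0251%). The 5 were Zc3h7a, Atp6v1a, Gm15107, Slc25a13 and Elp4. The 14 libraries can be split into 9 and 5 in only 2002 ways. Among 19907 genes some would therefore separate fully without any difference between the stages. Whether 28 exceeds that number was not tested, so these genes are given as values. The set also changed with the scaling: DESeq2 size factors gave 35 genes, of which 23 were among the 28. Zc3h7a, a zinc finger protein, stood at 129, 252, 145, 149 and 166 CPM in hyperplasia and at 38 to 101 in carcinoma (median 61.5). Atp6v1a, the catalytic subunit of the proton pump that acidifies lysosomes, stood at 117, 88.3, 295, 129 and 367 CPM against 37.3 to 69.8. Slc25a13, a mitochondrial aspartate and glutamate carrier, stood at 34.9, 29.7, 28.5, 72.3 and 60.4 CPM against 1.18 to 17.4. Of the 23, Fgf7, a growth factor for epithelium, and Rspo3, which amplifies Wnt signalling, stood at 0.608 to 16.5 and 0.194 to 35.2 CPM in carcinoma, against at most 0.419 for Fgf7 in hyperplasia and no count for Rspo3. Levels that low rest on few counts. Ilrun and Smap2 did not overlap at higher levels, at 70.5 to 181 and 32.1 to 63.9 CPM in carcinoma against 30.1 to 66.8 and 0 to 20.3. The number of such genes was 115, 60, 55, 80 and 76 without hyperplasia 21, 44, 22, 33 and 46, 47, 43 and 46 without carcinoma 06, 37 and 53, and 358 among core regions alone, where fewer libraries must be apart.

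**Figure D5:**
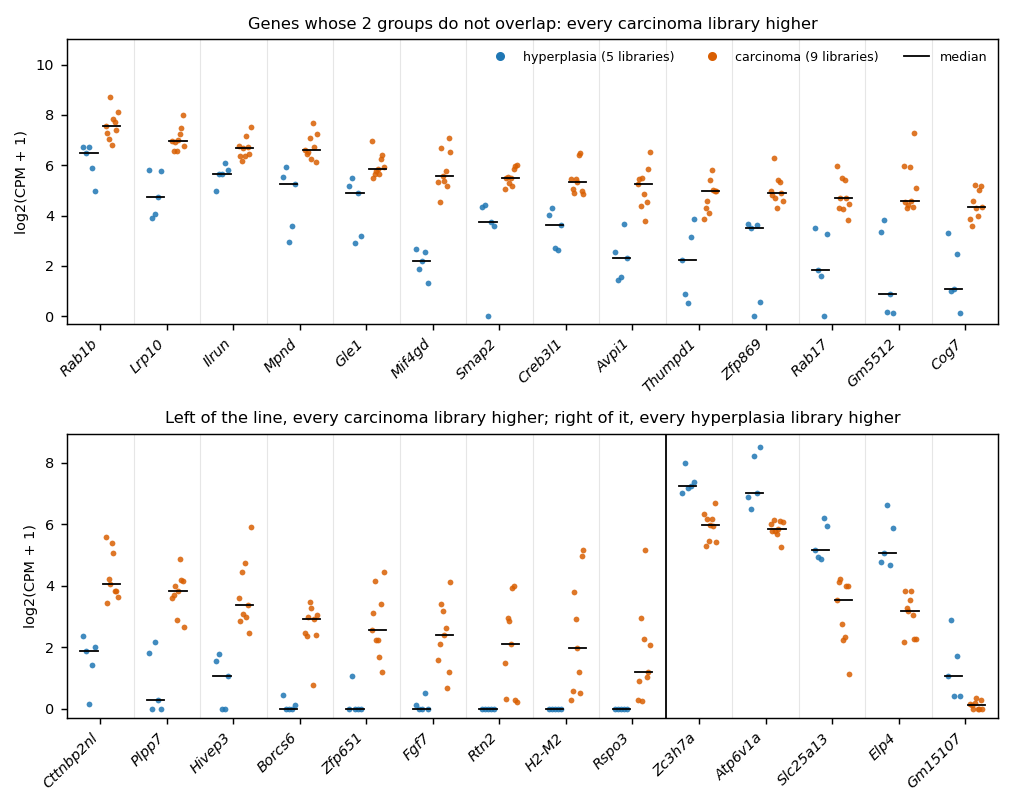
Level of the 28 genes whose groups do not overlap in every library, as log2(CPM + 1) on the y axis. In 23 of them each carcinoma point lies above each hyperplasia point, and in 5 the reverse holds.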

How the data were processed

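RNA of 7 µm laser-captured sections was amplified and sequenced. The authors deposited an unnormalized table of raw whole-number counts, and reads were aligned with STAR to mm10, per the submitters' processing notes. Not given in the sources used here: how reads were counted, on which annotation and strand, and what was done with multi-mapping reads. No molecular identifiers were used, and a count is not an independent molecule. Symbols came from RefSeq (GRCm38.p6), which matched 24374 of 24454 IDs. Genes kept by filterByExpr (19907, with 4547 left out) were scaled by TMM and fitted over all 32 libraries with 1 coefficient per stage in edgeR 4.0.16 (R 4.3.3), and tested two-sided with Benjamini-Hochberg adjustment at 0.05. CPM use TMM library sizes. DESeq2 1.42.0 and limma 3.58.1 were alternatives. The pipeline was tested on simulated data.

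Named genes were up to 10 each way past the threshold or, since none passed, of smallest p, with at least 20 CPM and 10 counts in 75% of the libraries of the higher group; predicted genes were passed over. In each list the 3 members of smallest p with at least 10 CPM could be named, and 13 keratin, milk, marker and division genes always. The genes without overlap were named after their values were seen, as were the promoters and their motifs. The comparison, lists and rules were chosen with earlier results of these data known. The ISRE was searched with 10 letters; a form of 9 letters was tried afterwards and its counts are given beside the first.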

Additional observations from a re-analysis of the deposited data

Results flagged for a closer look

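In 128 groups of values, 10 held a library set apart from the rest of its group by a gap above Dixon's 95% critical value, which is 0.71 for 5 libraries and 0.493 for 9. Gaps for genes were taken on log2(CPM + 1), and the gene values below are in CPM. Chance flags about 1 in 20 groups that are independent and normally distributed. The groups here share genes, and some of the genes were chosen by p in these libraries. Hyperplasia 22 was the library in 4 and hyperplasia 46 in 2. Hyperplasia 22 was high for Cebpd at 877 CPM, had no count (0 CPM) for Ccnb1, and had the lowest mean log2(CPM + 1) of the G2 and mitosis list at 1.77 and the highest of the immediate early and heat shock list at 6.64. Hyperplasia 46 was high for Csn2, at 7850 CPM, and for the alveolar list, at a mean of 8.01. Within the hyperplasia group, Snhg11 was counted in library 33 only, at 0.838 CPM, which rests on 4 counts. In carcinoma, Plxna4 was high in carcinoma 38 at 3.18 CPM, Cdh1 was low in carcinoma 53 at 49.6 CPM, and the luminal keratin list was low in carcinoma 55 at a mean of 5.39.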

How the results depend on the processing

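No paired analysis was possible because the labels do not tie regions to animals. Each replicate number belongs to a single library and does not name an animal. edgeR called 0 genes under the other scaling, both other filters, the fit of the 14 libraries alone, position as a covariate, core regions alone, without the gene ID of highest share, without the libraries under 11000 detected genes and without each library in turn. The number of calls was 420 with the DESeq2 Wald test (321 higher, 99 lower), 3 with limma voom (2 higher, 1 lower) and 12 with detected genes as a covariate (12 lower). The cause was not tested. B3galt6 was at 0.30 under limma voom, against −4.35. The difference in detected genes ranged from 881.9 to 2514 when 1 library was left out. Its exact permutation p was 0.0252 without hyperplasia 21, 0.312 without hyperplasia 22 and 0.321 in core regions alone. The genes without overlap numbered 28, and 32 to 115 with 1 library left out. They numbered 358 in core regions and 57 without the libraries of few genes. These settings have fewer libraries. With all 14 libraries kept, DESeq2 size factors gave 35, of which 23 were among the 28. The filter of 10 counts in 5 of the 14 libraries gave 31, and the fit of the 14 alone gave 30. Each of these shared 25 with the 28. The added settings for overlap and the ISRE search were chosen after seeing the data. Depth and the spread between regions limit the low genes most.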

Other observations

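Adenoma, the intermediate stage with 8 libraries, entered the filter, scaling and spread of the fit but neither side of the comparison. Of the 10 genes of smallest p higher in carcinoma, the adenoma mean lay between the other 2 means in 9, and of the 10 lower genes in 9. On the log2(CPM + 1) scale it was nearer to carcinoma in 9 and 8. Mif4gd had an adenoma mean of 19.1 ± 9.58 CPM (SD, n = 8), and Epb41l4b of 78.5 ± 38.4. The genes were chosen by the difference between the outer stages, so this is a description.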
